A study of Saccharomyces cerevisiae with 5 samples.

Results

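The permeases for sulfur-containing amino acids are 5 plasma membrane transporters, MUP1, MUP3, MMP1, SAM3 and YCT1. They were chosen by gene name from knowledge of their substrates, without a rule on measured values, although earlier results of these data were known. All 5 names were found among the 5886 genes listed in both expression tables. The data are mRNA sequencing of baker's yeast, Saccharomyces cerevisiae, strain BY4741, a haploid of mating type a that descends from S288C, with 3 libraries from a SUL1 knockout and 2 from wild-type cells. Both genotypes were grown in YPD (1% yeast extract, 2% peptone, 2% glucose) at 30 °C, a rich medium. An optical density at 600 nm of 0.6 is stated for the knockout alone, and the design text describes the cells of both groups as exponential. Each library is a biological replicate by its title, without a statement on separate cultures, so a p-value measures the spread between these libraries. The labels do not say whether the knockout is a single clone. A further wild-type replicate was not analysed here. The comparison addresses how loss of SUL1, a high-affinity sulfate transporter, alters the cell and lengthens its replicative lifespan.

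Yeast obtains sulfur either from sulfate, which is taken up and reduced to sulfide, or from organic compounds that dedicated permeases carry in. MUP1 is the high-affinity methionine permease and also carries cysteine, and MUP3 is a low-affinity methionine permease. MMP1 takes up S-methylmethionine, SAM3 takes up S-adenosylmethionine, and YCT1 is a cysteine transporter. Inside the cell, MHT1 and SAM4 use S-methylmethionine and S-adenosylmethionine to methylate homocysteine to methionine. Genes of sulfur uptake are known targets of the activator Met4, which is brought to DNA by Cbf1 and by Met31 and Met32. BY4741 carries a deletion of MET17 (also called MET15), the enzyme that joins sulfide to a carbon skeleton, in the knockout and the wild type alike.

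The genotype labels were checked first. SUL1 (YBR294W) was listed at 0 FPKM (fragments per kilobase, relative to library size) in all 3 knockout libraries and at 8.28 and 9.78 FPKM in the wild type. At the estimated depth of 24600000 to 24850000 fragments, a count of 0 allows up to 0.0498 FPKM in knockout replicate 1, the worth of 3 fragments, which covers counting error only. MET17 was listed at 0 in all 5 libraries, and HIS3, of which the strain carries a deletion allele, read between 130 and 146 FPKM. STE2, a receptor of mating type a cells, read 115 to 145 FPKM, and the alpha-cell genes STE3 and SAG1 read 8.26 to 11.8 FPKM. Of the other tested a-cell genes, AGA2 read 95.3 to 131 FPKM. BAR1 and STE6 read only 8.6 to 16.95 and 11.8 to 19.2 FPKM, so not every a-cell gene stood clear of the alpha-cell genes.

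The genes lie on 4 chromosomes of build R64, each with a single coding exon on the forward strand. MUP1 (YGR055W) spans 599417 to 601141 of chromosome VII, and MUP3 (YHL036W) spans 26241 to 27881 of chromosome VIII. MMP1 (YLL061W, 17956 to 19707) and YCT1 (YLL055W, 30109 to 31704) lie 10401 bp apart on chromosome XII. SAM3 (YPL274W) spans 22938 to 24701 of chromosome XVI, with SAM4 on the same strand 385 bp beyond its end.

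MMP1 and MHT1 are transcribed away from each other from a shared intergenic stretch of 342 bp. The sequence from 250 bases before to 50 bases after the MMP1 start (R64, chrXII:17706-18005, forward strand) is shown because it holds the part of that stretch next to MMP1. Its capitals mark TGTGGC, a core that Met31 and Met32 are known to bind, here as GCCACA on the printed strand.
MMP1: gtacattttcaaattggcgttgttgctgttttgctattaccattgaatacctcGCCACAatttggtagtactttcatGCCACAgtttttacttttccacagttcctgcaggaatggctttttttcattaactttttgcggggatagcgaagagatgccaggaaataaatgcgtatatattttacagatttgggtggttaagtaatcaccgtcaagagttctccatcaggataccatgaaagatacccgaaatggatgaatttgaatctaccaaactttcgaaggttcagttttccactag

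On either strand, TGTGGC stands within 600 bases before the start in all 5 permease genes and in 17.3% of 5999 such windows of protein-coding genes. Of these windows 1.92% hold it more than once, those of MUP1, MUP3, MMP1 and YCT1 among them. The other members' matches are printed with 20 bases on either side, turned so that the core reads TGTGGC, to show how much of the surrounding sequence they share.
MUP1, chrVII:598967-599012, reverse strand: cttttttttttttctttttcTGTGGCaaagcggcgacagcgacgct
MUP1, chrVII:599117-599162, reverse strand: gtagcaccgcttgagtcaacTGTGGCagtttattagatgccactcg
MUP3, chrVIII:25808-25853, forward strand: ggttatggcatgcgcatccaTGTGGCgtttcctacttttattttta
MUP3, chrVIII:26043-26088, forward strand: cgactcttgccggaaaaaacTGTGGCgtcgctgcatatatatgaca
SAM3, chrXVI:22555-22600, forward strand: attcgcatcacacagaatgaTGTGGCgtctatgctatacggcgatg
YCT1, chrXII:29639-29684, forward strand: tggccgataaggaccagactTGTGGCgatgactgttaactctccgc
YCT1, chrXII:29709-29754, forward strand: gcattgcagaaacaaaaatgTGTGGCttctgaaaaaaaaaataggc

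The longer form AACTGTGGC, chosen after these sequences were seen, occurs before MUP1, MUP3 and MMP1 and in 0.683% of all windows. CACGTG, the core bound by Cbf1, was found within 600 bases of MUP3 (7.23% of windows). GATAAG, the core bound by GATA factors of nitrogen control, was found within 600 bases of MUP3, MMP1, SAM3 and YCT1 (26.8% of windows). No match of the 3 motifs overlapped a match of another in these windows. A match describes the letters in a window and is no evidence of binding, and windows can reach into a neighbouring gene.

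The coding sequences were compared because reads can be assigned to the wrong copy of a similar gene. MMP1 and SAM3 were the closest pair, with 68.1% identical columns in a global alignment of their coding sequences. Their longest identical stretch was 20 bp, and no stretch of 25 bp was shared by any of the 10 pairs. The other 9 pairs had 46.8% to 48.6% identical columns.

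MUP1 was the most abundant of the permease transcripts in every library. Knockout replicates 1, 2 and 3 read 29.9, 53.3 and 23.8 FPKM, and wild-type replicates 1 and 2 read 61.8 and 40.2 FPKM. Its mean over all libraries, 41.8 FPKM, lay close to the median of all tested genes, 43.0 FPKM. SAM3 and YCT1 followed at similar levels, with means over all libraries of 15.2 and 15.02 FPKM. Their ranges of 12.9 to 15.2 and 12.2 to 15.5 FPKM in the knockout overlapped, as did their wild-type ranges. MUP3 and MMP1 were the least abundant, at means of 8.18 and 7.0 FPKM. In the knockout their ranges overlapped, whereas in the wild type MUP3 stood above MMP1 in both libraries.

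**Figure D1:**
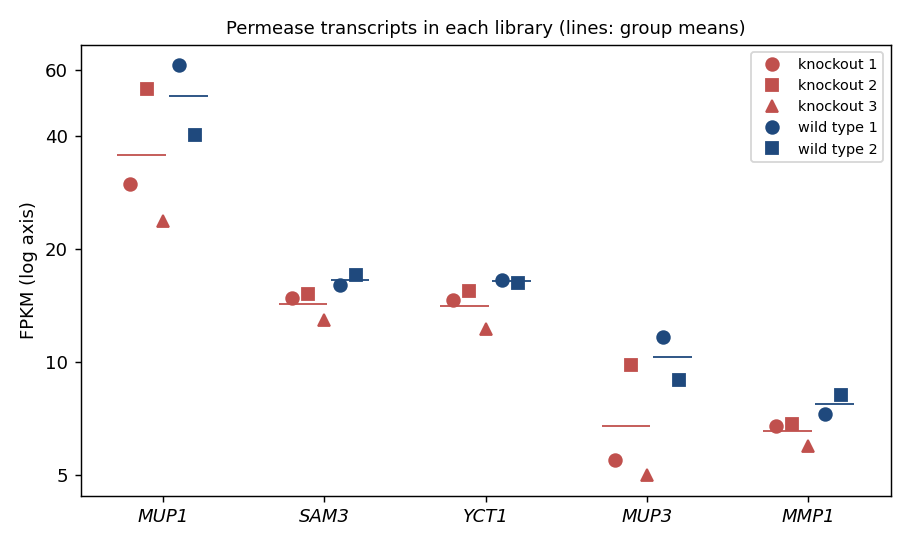
FPKM on a log axis for the 5 permease genes, with a point for each library (red, 3 knockout; blue, 2 wild type) and a line at each group mean. MUP1 and MUP3 are spread widely within both groups and the groups overlap. SAM3, YCT1 and MMP1 are tightly grouped, with each knockout library below both wild-type libraries, as for 28% of all tested genes.

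No permease gene passed the test of knockout against wild type, although all 5 estimates were negative. In bulk RNA, fewer cells with a transcript and less of it per cell cannot be told apart. The test was limma on log2(FPKM + 1), adjusted by Benjamini-Hochberg over the 5712 genes that averaged 1 FPKM or more, and all 5 permeases entered it. Of all genes tested, 0.193% were called higher and 0.07% lower at an adjusted p under 0.05. At an unadjusted p under 0.05 there were likewise 0 of the 5 permeases, against 395 higher and 665 lower genes in all. This balance depends on the scaling, with 221 higher and 1466 lower for equal FPKM sums and 603 higher and 400 lower for median ratio scaling. With equal FPKM sums MUP3, SAM3 and YCT1 had unadjusted p of 0.0313, 0.0398 and 0.0402 (limma), and none of them passed after adjustment. The median log2 fold change of the permeases was -0.21, beside -0.07 for all tested genes, of which 3578 were negative. Scaling the libraries to equal FPKM sums moved the median of all genes to -0.16, whereas median ratio scaling and removal of a trend on gene length both moved it to -0.01.

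The methionine permeases had the larger estimates and the larger errors. MUP1 averaged 35.6 ± 15.6 FPKM (SD, n = 3) without SUL1 and 51.0 ± 15.2 FPKM (SD, n = 2) with it. Its log2 fold change was -0.55 ± 0.38 (SE), with a 95% confidence interval from -1.52 to 0.41 (limma, adjusted p = 0.458). Knockout replicate 2, at 53.3 FPKM, stood above wild-type replicate 2, at 40.2 FPKM, so the groups overlapped.

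MUP3 read 5.47, 9.83 and 4.99 FPKM in knockout replicates 1 to 3 and 11.7 and 8.92 FPKM in wild-type replicates 1 and 2. The order of the libraries from high to low was that of MUP1, namely wild-type replicate 1, knockout replicate 2, wild-type replicate 2, knockout replicate 1 and knockout replicate 3. Its group means, 6.76 ± 2.67 FPKM for the knockout (SD, n = 3) and 10.3 ± 1.94 FPKM for the wild type (SD, n = 2), gave a log2 fold change of -0.58 ± 0.28 (SE, 95% confidence interval -1.23 to 0.07, limma, adjusted p = 0.301).

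MUP3 was called only when knockout replicate 2 was left out. In that library MUP1 and MUP3 were 1.99 and 1.88 times the mean of the other knockout libraries. Without that library MUP3 was called lower, at -0.85 ± 0.16 (SE, limma, adjusted p = 0.0151), and MUP1 missed the threshold at -0.88 ± 0.23 (adjusted p = 0.0607). Leaving it out also brought 10.4% of all tested genes to a call of lower and 5.22% to a call of higher. With a trend on gene length removed as well, the MUP3 call stood (-0.73) and 2.07% of all genes were called lower. With any other single library left out, neither gene was called.

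**Figure D2:**
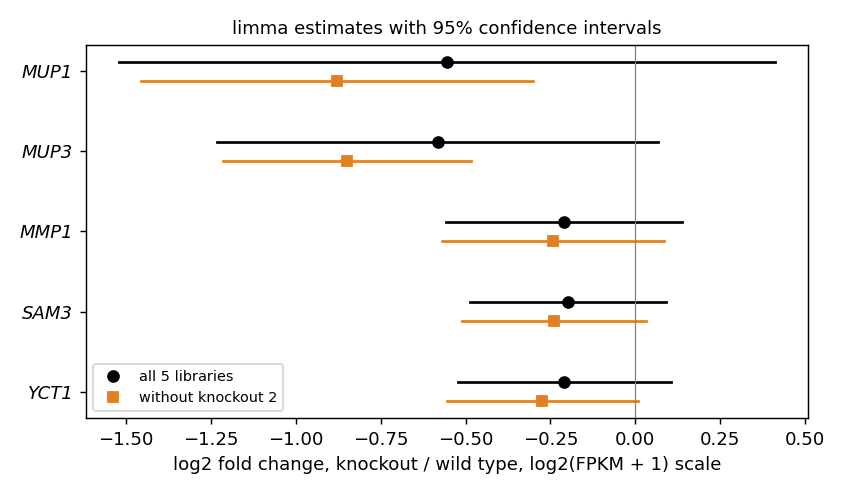
Log2 fold change of knockout against wild type for each permease gene on the log2(FPKM + 1) scale, with limma's 95% confidence interval, from all 5 libraries (black circles) and without knockout replicate 2 (orange squares). With all libraries every interval spans 0; without knockout replicate 2 those of MUP1 (-1.46 to -0.30) and MUP3 (-1.21 to -0.48) lie below 0.

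MMP1, SAM3 and YCT1 had small estimates of nearly equal size. MMP1 read 6.75, 6.85 and 5.98 FPKM in knockout libraries against 7.26 and 8.16 FPKM in wild-type ones. SAM3 read 14.8, 15.2 and 12.9 FPKM against 16.01 and 17.1 FPKM. YCT1 read 14.6, 15.5 and 12.2 FPKM against 16.5 and 16.2 FPKM. For each of the 3 genes every knockout library was below both wild-type libraries, and knockout replicate 3 was the lowest.

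Such a complete separation in the lower direction was also found for 28% of all tested genes. The knockout means of MMP1, SAM3 and YCT1 were 0.847, 0.865 and 0.861 times the wild-type means. The corresponding log2 fold changes were -0.21 ± 0.15 for MMP1, -0.20 ± 0.12 for SAM3 and -0.21 ± 0.13 for YCT1 (SE, limma, adjusted p = 0.452, 0.401 and 0.415). The 95% confidence intervals reached from -0.56 to 0.14 for MMP1, from -0.49 to 0.09 for SAM3 and from -0.52 to 0.10 for YCT1, so a fall of the size measured for MUP1 lies just inside the first interval only.

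Fold changes varied with gene length over all tested genes. The median log2 fold change was 0.06 for 2192 tested genes with a coding length under 1000 bp, -0.09 for 2205 genes of 1000 to 2000 bp, and -0.26 for 517 genes over 3000 bp. The permease genes have coding lengths of 1596 to 1764 bp. After removal of the trend with length, the log2 fold changes of MMP1, SAM3 and YCT1 were -0.10, -0.09 and -0.11, and those of MUP1 and MUP3 were -0.45 and -0.48. YCT1 then overlapped between the groups, whereas MMP1 and SAM3 did not, as for 16.5% of all tested genes in the lower direction. Median ratio scaling of the libraries kept the separation of all 3 (19.7% of all genes), and equal FPKM sums added MUP3 (44% of all genes). The part of length in these results was not tested further.

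The spread within groups also divided the members. The residual standard deviation on the log2(FPKM + 1) scale was 0.54 for MUP1 and 0.41 for MUP3, above 98.2% and 96.0% of all tested genes in rank. For MMP1, SAM3 and YCT1 it was 0.10, 0.10 and 0.13, at ranks of 33.9%, 36.4% and 54.3%. The highest library exceeded the lowest 2.60-fold for MUP1 and 2.34-fold for MUP3, and 1.32-fold to 1.36-fold for the other 3. Counting error is small beside this, since MUP1 corresponded to an estimated 939 to 2421 fragments per library and MUP3 to 187 to 433 fragments. A count of 187 fragments carries a counting error of 7.31%. MMP1 had 240 to 294 fragments, SAM3 523 to 643 and YCT1 444 to 596.

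Ratios between MUP1 and MUP3, and among MMP1, SAM3 and YCT1, were steadier than the levels. MUP1 stood at 5.46, 5.42 and 4.76 times MUP3 in knockout libraries and at 5.29 and 4.51 times in wild-type ones. SAM3 over MMP1 ran from 2.09 to 2.21 across the 5 libraries, and SAM3 over YCT1 from 0.968 to 1.06. MUP1 over SAM3, in contrast, ranged from 1.84 in knockout replicate 3 to 3.86 in wild-type replicate 1. The summed level of the 5 permeases was 71.6, 100.6 and 59.9 FPKM in knockout libraries, against 113 and 90.6 FPKM in wild-type ones. MUP1 made up 39.7% to 54.5% of that sum.

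The genes most like each member were found by the root mean square difference of centred log2(FPKM + 1) values over the 5 libraries, among the 5711 other tested genes. For MUP1 they were IRC10 (0.09), BUD4 (0.09) and YPR014C (0.10), and for MUP3 they were ECM27 (0.02), RIF1 (0.05) and DYN1 (0.06). MUP3 ranked 14 in likeness to MUP1, with AGP1, a broad amino acid permease, next at rank 15. SAM3 ranked 16 for MMP1, whose 3 nearest genes were KAP120, KIC1 and ALY1 (each 0.02). RKR1 (0.01), APL4 (0.01) and FZO1 (0.02) were nearest to SAM3, and KAP122 (0.02), WSC2 (0.02) and MRE11 (0.02) to YCT1. Seen from these 3 members MUP1 was far, at rank 5468 for MMP1, 5444 for SAM3 and 5342 for YCT1. Seen from MUP1 they were nearer than the median gene, with YCT1 at rank 968, SAM3 at 1548 and MMP1 at 1923. Flat profiles lie close to many genes, so distances are smaller around MMP1, SAM3 and YCT1, and the likeness is a description over 5 libraries.

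Enzymes beside the permease genes did not always share their profile. MHT1, the S-methylmethionine-dependent methyltransferase that shares its upstream region with MMP1, read 4.22, 7.29 and 4.26 FPKM in knockout libraries and 8.22 and 7.24 FPKM in wild-type ones. It was high in knockout replicate 2, as were the methionine permeases, and it ranked 20 in likeness to MUP3 and 4847 in likeness to MMP1. Its log2 fold change was -0.51 ± 0.23 (SE, limma, adjusted p = 0.290). Without knockout replicate 2 it was called lower (-0.73, limma, adjusted p = 0.0187), where 10.4% of all tested genes were. SAM4, the S-adenosylmethionine-dependent methyltransferase next to SAM3, was far more abundant than its neighbour, at 581, 543 and 500.3 FPKM in knockout libraries and 615 and 621 FPKM in wild-type ones. Every knockout library was below both wild-type libraries, as for 28% of all tested genes. The log2 fold change of SAM4, -0.19 ± 0.09, was not called (limma, adjusted p = 0.309).

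**Figure D3:**
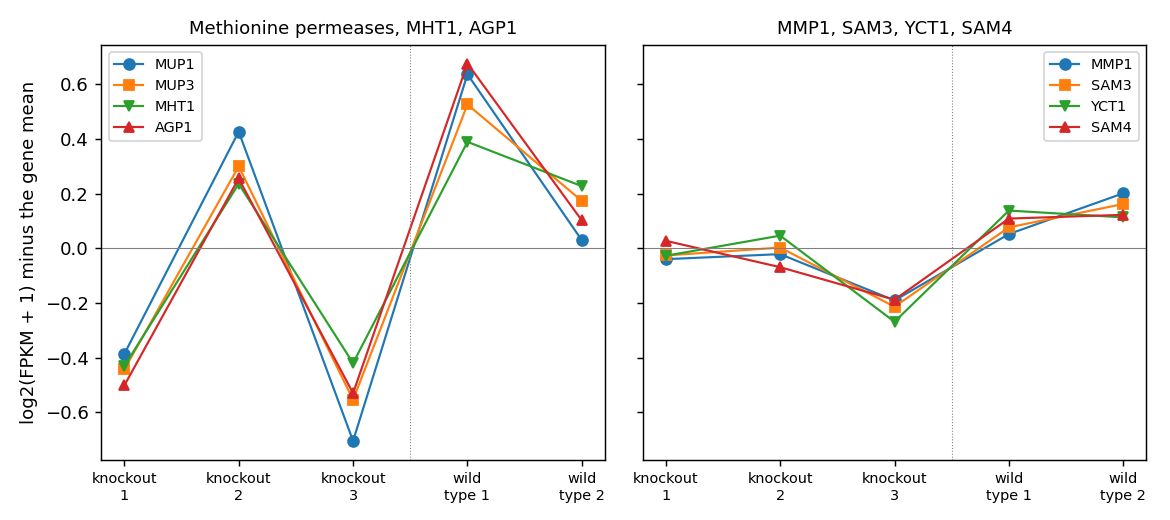
Log2(FPKM + 1) of each gene minus its mean over the 5 libraries, by library. MUP1, MUP3, MHT1 and AGP1 (left) are high in knockout replicate 2 and wild-type replicate 1. MHT1 is also high in wild-type replicate 2, at 7.24 FPKM beside 7.29 FPKM in knockout replicate 2. MMP1, SAM3, YCT1 and SAM4 (right) stay within 0.3 of their means.

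Of the remaining neighbours, none was called with all 5 libraries. RSC1, a chromatin remodelling subunit gene downstream of MUP1, had -0.32 ± 0.12 (SE, limma, adjusted p = 0.242), and -0.12 with the length trend removed. It was called lower without knockout replicate 2 (-0.41, limma, adjusted p = 0.0336), where 10.4% of all tested genes were. YGR054W, upstream of MUP1, had -0.24 ± 0.13 (adjusted p = 0.343). VMR1, a vacuolar transporter gene that converges on MUP3 with 96 bp between them, had 0.03 ± 0.12 (adjusted p = 0.909). Upstream of MUP3, YHL037C was below the filter at 0 to 0.61 FPKM. GTT2, a glutathione transferase gene beyond MMP1, had 0.32 ± 0.13 (adjusted p = 0.260). YLL056C and YLL054C on either side of YCT1 had 0.06 ± 0.14 and -0.34 ± 0.14 (adjusted p = 0.829 and 0.245), and YPL277C, the nearest protein-coding gene left of SAM3, had -0.21 ± 0.19 (adjusted p = 0.546). The strand setting of the counting is not given in the sources used here, so reads that run past the end of a converging gene cannot be told apart.

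Enzymes that use the imported compounds had negative estimates, none of them called. All 10 members of a list of homocysteine methyltransferases, methionine cycle and transsulfuration enzymes had negative estimates, with a median of -0.30, and 0 were called in either direction. MHT1, at the value above, and MET6, the methionine synthase, at -0.44 ± 0.10 (SE, limma, adjusted p = 0.157), had the estimates farthest from 0. In 7 of the 10 every knockout library was below both wild-type libraries, as in 28% of all tested genes. Without knockout replicate 2, 4 were called lower, where 10.4% of all genes were. Sulfate uptake and reduction genes had a median of -0.14 over 11 tested, and only SUL1 itself was called. MET5 and MET10, subunits of sulfite reductase, had -0.38 ± 0.18 and -0.27 ± 0.16, which became -0.13 and -0.06 with the length trend removed. Both were chosen after their values were seen.

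Genes that regulate sulfur uptake were not called in either direction over the 9 members of the Met4 list, with a median of -0.06. CBF1 and MET30, the latter part of the ubiquitin ligase that restrains Met4, had the estimates farthest from 0 at -0.40 ± 0.21 and -0.40 ± 0.17 (SE, limma, adjusted p = 0.333 and 0.260). CBF1 read 28.7, 48.0 and 33.0 FPKM in knockout libraries and 49.8 and 45.5 FPKM in wild-type ones, and so was high in knockout replicate 2. Both were called lower without that library, where 10.4% of all tested genes were. Genes for uptake and use of other organic sulfur had a median of -0.08 over 11 genes with 0 called. The median was 0.004 with the length trend removed. Without knockout replicate 2, 3 of the 11 were called lower, beside the same 10.4% of all tested genes. Among them OPT1, a glutathione and oligopeptide transporter, had -0.54 ± 0.16 and GSH1, of glutathione synthesis, -0.35 ± 0.13 (adjusted p = 0.182 and 0.226).

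Among amino acid permeases of wider range, AGP1 resembled the methionine permeases by library. Other genes were nearer still, among them IRC10 and BUD4 for MUP1, and ECM27 and RIF1 for MUP3. AGP1, which can also carry methionine and cysteine, read 28.5, 48.9 and 27.9 FPKM in knockout libraries and 65.8 and 43.9 FPKM in wild-type ones. Its log2 fold change was -0.65 ± 0.29 (SE, limma, adjusted p = 0.292). TAT1, a tyrosine and tryptophan permease, had 50.5, 78.3 and 55.5 FPKM in knockout libraries and 82.7 and 84.1 FPKM in wild-type ones (-0.46 ± 0.18, adjusted p = 0.247). In TAT1 knockout replicate 2 was below both wild-type libraries, unlike in MUP1 and MUP3. That library was the highest of the knockout libraries for 5 of the 8 genes, as for 49.5% of all tested genes, and the lowest for GAP1, GNP1 and TAT2. The list had a median of -0.30, with 7 negative and 0 called. Without knockout replicate 2, 4 of the 8 were called lower, where 10.4% of all genes were. Their difference from the sulfur amino acid permeases was not tested.

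Genes whose products sense amino acids or act on permeases had negative medians, with 0 called in either direction. The 6 genes of the SPS sensor of external amino acids had a median of -0.10, with GRR1, a ubiquitin ligase subunit, at -0.36 ± 0.13 and the protease SSY5 at -0.28 ± 0.13 (SE, limma, adjusted p = 0.236 and 0.294). The 9 genes of permease endocytosis had a median of -0.21, with RSP5, the ubiquitin ligase that marks MUP1 for uptake into the cell, at -0.46 ± 0.10 and the adaptor BUL1 at -0.25 ± 0.11 (adjusted p = 0.148 and 0.265). After removal of the length trend these medians were 0.05 and -0.03, a change of sign for the SPS list. Methionine salvage and polyamine genes had a median of -0.15 over 10 genes, led by SPE1, ornithine decarboxylase, at -0.45 ± 0.11 and ARO8, an aminotransferase, at -0.34 ± 0.10 (adjusted p = 0.169 and 0.189).

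Genes of late growth had estimates of the opposite sign, on balance. Over 15 genes the median was 0.21, 11 were positive, and 2 were called higher, beside 0.193% of all genes, namely SPG4 (2.03 ± 0.22 SE, limma, adjusted p = 0.0316) and HSP26 (1.53 ± 0.14, adjusted p = 0.0164). Neither was called with the length trend removed, with a replicate block, or without knockout replicate 3 or a wild-type replicate, since no gene was then called higher. The summed level of the list was 1244, 1204 and 1176 FPKM in knockout libraries and 663 and 618 FPKM in wild-type ones. Knockout replicate 2, where MUP1 and MUP3 were high, lay between the other knockout libraries in this sum. By gene, it was the highest of the knockout libraries for 10 of the 15, beside 49.5% of all tested genes. The part of late growth genes in the permease values was not tested. SAG1 and STE3 of the alpha list had -0.29 ± 0.14 and 0.15 ± 0.17 (median -0.07 over 2 genes), BAR1 and AGA2 of the a list -0.39 ± 0.26 and -0.20 ± 0.14 (median -0.18 over 4 genes), and 0 were called.

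**Figure D4:**
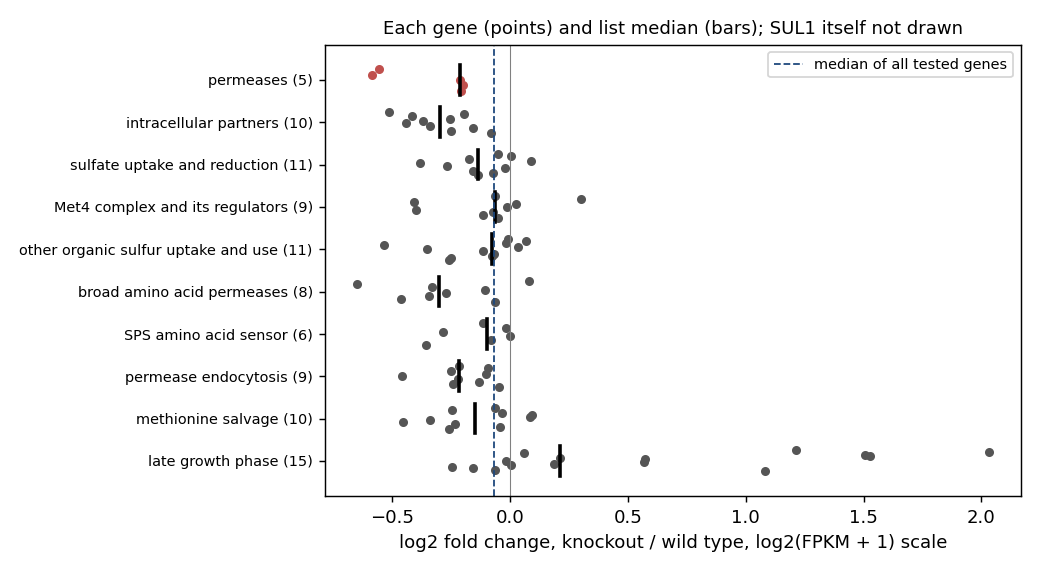
Log2 fold change of knockout against wild type for the tested genes of each list (points, permeases in red), with the list median (bar), zero (grey line) and the median of all tested genes (dashed line, -0.07). The permeases lie left of both lines, with MUP1 and MUP3 apart from the other 3; the median of the sulfate list includes SUL1, which is not drawn.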

How the data were processed

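Values are FPKM per the file headers, scaled by the authors within each library. The submitters' processing notes name build R64 with RSEM 1.3.1, HISAT2 2.1.0, DESeq2 1.4.5 and Bowtie2. What each did, and which annotation and strandedness were used, is not given in the sources used here.

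Tables were joined by gene ID (5883 of 5886 matched the RefSeq R64 annotation; 2 symbols turned into dates were restored). log2(FPKM + 1) was fitted with limma 3.58.1 in R 4.3.3 on genotype, with a trended, robust prior variance, over the 5712 genes that averaged 1 FPKM or more. The added 1 shrinks the fold changes of low genes. The procedure was tested on simulated data with independent noise for each gene and library. Those data held no trend on gene length and no deviation shared between genes, so the test does not cover either. Python 3.11.15 and matplotlib 3.10.9 did the rest.

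Low FPKM values step by whole fragments, which gave an estimate of the depth once 134 to 144 bases were taken off the coding length. In each library 88.0% to 93.4% of 99 to 122 values were whole to within 0.15, against 30% for an arbitrary depth. Depth and bases taken off were those that made this share largest, and how far such a search raises the share by itself was not measured. The estimated depth was 22350000 to 24850000 fragments and entered no test.

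Members, gene lists and the rule for named genes (SUL1, the permeases, their neighbours, strain markers, the called or else the 2 most changed genes of each list, and the 3 genes most like each member) were chosen with earlier results of these data known. MET5 and MET10 were named after their values were seen. Motifs and sequences come from the RefSeq R64 genome. Alternatives covered the pseudocount, filter, scaling, gene length, prior variance, replicate block and each library left out.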

Additional observations from a re-analysis of the deposited data

How the results depend on the processing

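All 68 permease estimates from the alternatives were negative, and 66 kept their side of the threshold. The alternatives refit the same libraries, in whole or in part, so their shared sign is no separate support. Over single libraries left out, the log2 fold change ran from -0.88 to -0.25 for MUP1, -0.85 to -0.41 for MUP3, -0.29 to -0.14 for MMP1, -0.24 to -0.13 for SAM3 and -0.27 to -0.12 for YCT1. MUP3 was called lower without knockout replicate 2, also with the length trend removed (-0.73, limma, adjusted p = 0.0469), an alternative chosen after seeing the data. Without 1 wild-type library, the other is assumed to vary like the knockout. Over all genes, 11 were called higher and 4 lower. With libraries left out in turn these counts ranged from 0 to 298 higher and 0 to 596 lower, both highest without knockout replicate 2, where removal of the length trend left 200 higher and 118 lower. Equal FPKM sums gave 4 higher and 4 lower, median ratio scaling 15 and 4, a single prior variance 7 higher, a minimum mean of 10 FPKM 2 lower, and removal of the length trend 0 higher and 1 lower (limma, 655 genes at an unadjusted p under 0.05). Nothing was called without knockout replicate 3, wild-type replicate 1 or wild-type replicate 2 (limma; unadjusted p under 0.05 for 624, 747 and 317 genes). With the replicate block 0 were higher and 0 lower (limma, 399 genes at an unadjusted p under 0.05), and MUP1 and MUP3 had -0.31 and -0.42. No wild-type library has the number of knockout replicate 3, so these estimates equal those with knockout replicate 3 left out. Knockout and wild-type libraries share 2 numbers, and the deviations of same-numbered libraries from their group means correlated at -0.37 and -0.43. The deviations of 2 wild-type libraries mirror each other, so these values cannot show whether same-numbered libraries were paired. Equal FPKM sums separated the groups for MUP3 too, as for 44% of all genes. The causes of these changes were not tested.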
